A study of Mus musculus with 6 samples.

Results

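mt-Rnr1 (ENSMUSG00000064337.1) is the mitochondrial gene for the RNA of the small ribosomal subunit. It was chosen by its annotated place, positions 70 to 1024 on the forward strand of the mitochondrial chromosome (chrM, GRCm38, GENCODE annotation), and is 1 of 37 annotated mitochondrial genes and 955 nt long. The libraries came from RNA of pancreatic islets, the hormone-secreting clusters of the pancreas. They were made from 3 mice of genotype Mrpp3N434S, which carry the N434S allele of Mrpp3, and 3 of genotype Mrpp3WT, the wild-type allele. All 6 mice had eaten a high-fat diet for 14 weeks, and the sources used here give no age, sex, strain or chow-fed group. The files hold the number of A, C, G, T and N read at each position of each strand, so reads appear as depth, the number of reads that cover a base. Only mitochondrial positions are covered, so the islet origin could not be checked against nuclear marker genes.

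The ribosomal RNAs of mitochondria are cut out of a long transcript in which tRNAs sit between the larger genes. RNase P, whose nuclease subunit is MRPP3, cuts at the 5′ side of each tRNA, and ELAC2 cuts at the 3′ side. mt-Rnr1 follows mt-Tf and is followed by mt-Tv, so its 5′ end lies beside an ELAC2 site and its 3′ end is made by RNase P. Once free, the RNA is methylated near its 3′ end by TFB1M, METTL15 and NSUN4 and joins the small subunit, which reads the mRNA during translation. Small RNA libraries capture short pieces whose ends can take an adapter. They therefore show fragments of this rRNA, not the intact molecule, and fewer fragments per cell cannot be told apart from fewer cells that give them.

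The stretches on which the results turn are shown 5′ to 3′ in the DNA letters of the deposited reference column, on the forward strand. The first is the block at the 5′ end, chrM:70-160, with capitals at the first base of the gene and at the ends of net depth falls described later.
5′ block: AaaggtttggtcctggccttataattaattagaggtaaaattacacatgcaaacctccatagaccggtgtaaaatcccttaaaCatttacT
The next are the 2 depth peaks, chrM:329-433 with a capital at its highest base, and chrM:826-918 with capitals at bases where depth stepped up or down.
Peak 1: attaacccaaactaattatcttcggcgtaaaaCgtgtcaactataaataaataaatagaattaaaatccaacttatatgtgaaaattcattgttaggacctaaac
Peak 2: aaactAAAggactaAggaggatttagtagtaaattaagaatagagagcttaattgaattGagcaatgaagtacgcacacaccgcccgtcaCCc
The last are the 3′ end of the gene, chrM:970-1024, with capitals at the adenosine pair that TFB1M dimethylates, and the border with mt-Tv, chrM:1005-1044, with capitals at the last base of mt-Rnr1 and the first base of mt-Tv.
3′ end: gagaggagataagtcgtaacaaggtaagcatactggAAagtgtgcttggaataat
Border with mt-Tv: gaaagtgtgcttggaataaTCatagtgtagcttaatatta

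The 6 libraries held 3156761 to 10923311 sequenced bases over both strands. mt-Rnr1 took 24.6%, 21.9% and 20.6% of them in Mrpp3N434S replicates 1, 2 and 3, against 15.9%, 16.3% and 15.3% in Mrpp3WT replicates 1, 2 and 3. The shares did not overlap between genotypes. Mrpp3N434S replicate 1 stood apart in depth, with the largest total and with 113 mt-Rnr1 positions above a depth of 6000 over both strands. These positions formed 2 runs, 48 positions at chrM:337-384 with a maximum of 7994, and 65 positions at chrM:827-891 with a maximum of 8000. The other 5 libraries had 0 such positions in the gene. No position of any library passed 8000, so depth in the 2 runs of that library may be cut off at a limit. The count of risen windows, the peaks, the ratio of the rRNA genes, the end ratios and the net rises are also given without such positions. The depth of the whole gene and of single windows is given with them. The labels name no sequencing batch.

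mt-Rnr1 fragments were more abundant in Mrpp3N434S islets than in Mrpp3WT islets on a scale set by the mitochondrial genes. Some protein-coding genes lay higher as well, as described later. The mean depth of the gene was 2811, 1250 and 1279 reads in Mrpp3N434S replicates 1 to 3, against 724, 593 and 505 reads in Mrpp3WT replicates 1 to 3. After trimmed mean (TMM) scaling over the mitochondrial genes, the normalized depth was 1755, 1436 and 1127 in Mrpp3N434S libraries, against 705, 836 and 769 in Mrpp3WT libraries. Every Mrpp3N434S library lay above every Mrpp3WT library. Normalized depth averaged 1439 ± 314 in Mrpp3N434S and 770 ± 65.2 in Mrpp3WT (SD, n = 3 each), a log2 difference of 0.90 (SE 0.25, adjusted p = 0.0129, edgeR quasi-likelihood test with Benjamini-Hochberg adjustment over 34 genes). Of the 34 genes tested, 2 passed in either direction, or 5.88%, and 2.94% passed as higher. Among the scalings and left-out libraries tried, the call was lost without Mrpp3WT replicate 1 (log2 0.84, edgeR adjusted p = 0.167), without Mrpp3WT replicate 3 (log2 0.82, edgeR adjusted p = 0.107) and with scaling to the summed rRNA genes (log2 0.24, edgeR adjusted p = 0.106). That rRNA scale sums the 2 ribosomal RNA genes, mt-Rnr1 among them, so it draws the difference of mt-Rnr1 toward 0 by construction. Scaling to library totals, to tRNA genes or to rRNA genes moved the median log2 difference of all tested genes by 0.11, 0.41 and -0.66. Library totals in this setting are the summed mean depths of all mitochondrial genes, not the sequenced bases given above. A short gene therefore weighs as much as a long one of equal depth.

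The neighbours in the rRNA transcription unit were mt-Tf, mt-Tv, mt-Rnr2 and mt-Tl1. With mt-Rnr1, 4 of the 5 genes reached the mean depth of 10 needed for the test (mt-Tf did not), of which 1 rose, mt-Rnr1, and 0 fell. mt-Rnr2, the RNA of the large ribosomal subunit, had a normalized depth of 2396, 2213 and 1856 in Mrpp3N434S, against 1296, 1654 and 1596 in Mrpp3WT. Its groups did not overlap, and its log2 difference of 0.51 did not pass (SE 0.24, edgeR adjusted p = 0.116). The difference turned negative under rRNA scaling and when the maximum depth stood for the gene. At its start, chrM:1094-1210, mean depth was 7097, 6868 and 6969 reads in Mrpp3N434S, against 6250, 6626 and 6400 in Mrpp3WT. This is close to the 8000 that no position passed, so mt-Rnr2 depth may be cut off in every library. Its mean and maximum depth are limited by this. mt-Tv, the valine tRNA next to the 3′ end, had a normalized depth of 582, 1074 and 708 in Mrpp3N434S, against 1495, 1158 and 1118 in Mrpp3WT. Its groups did not overlap, and its log2 difference of -0.68 did not pass over all genes (SE 0.25, edgeR adjusted p = 0.0736). Tested as 1 window among the 258 described later, the same depth passed as lower (edgeR adjusted p = 0.0352). mt-Tl1, the leucine tRNA after mt-Rnr2, had a log2 difference of 0.26 (SE 0.28, edgeR adjusted p = 0.522), negative under rRNA scaling.

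The ratio of mt-Rnr1 to mt-Rnr2 mean depth was 0.732, 0.649 and 0.607 in Mrpp3N434S, against 0.544, 0.505 and 0.482 in Mrpp3WT. The groups did not overlap, which gives p = 0.1 in an exact two-sided permutation test, the smallest that 3 against 3 libraries allow. Without the positions above a depth of 6000 in any library, most of them outside mt-Rnr1, the ratio was 0.735, 0.706 and 0.682 against 0.663, 0.695 and 0.696, and the groups overlapped (exact permutation p = 0.4). With median depths the direction turned, with 0.590, 0.532 and 0.594 in Mrpp3N434S against 0.612, 0.624 and 0.647 in Mrpp3WT. A difference between the rRNA genes was therefore not settled by these libraries. The genes whose normalized depth followed mt-Rnr1 most closely over the 6 libraries were mt-Co1, mt-Atp6 and mt-Nd4, with root mean square differences of centred log2 depth of 0.143, 0.169 and 0.176, and mt-Rnr2 came 4th with 0.209. mt-Co1, mt-Atp6 and mt-Nd4 had log2 differences of 0.78, 0.63 and 0.66. Their groups did not overlap, and none passed (edgeR adjusted p = 0.0606, 0.0736 and 0.0736). These 3 genes were picked by likeness over the same values, the genotype difference included, so their higher depth follows in part from that choice. Among the 258 windows described later, 33.7% rose over all genes, with 26 of 32 in mt-Rnr2 among them. Higher depth was in that sense not limited to mt-Rnr1.

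Depth along the gene had 3 summits in the body and a thin 3′ end in all 6 libraries. A block at the 5′ end stood out in 5 of them but not in Mrpp3N434S replicate 1, where depth was 702 reads at the first base and averaged 780 over the stretch chrM:161-227 that follows the block elsewhere. Summits are given as depth over the gene's mean depth in the same library, averaged over the 6 libraries. The body summits stood at position 361 with 2.35 times the gene mean, at position 613 with 1.53 times and at position 848 with 3.62 times. Stretches under 0.3 times the gene mean lay at chrM:161-227, chrM:234-248, chrM:512-541, chrM:698-725 and chrM:940-1024. The lowest base, position 956, had 0.0701 times the gene mean.

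**Figure D1:**
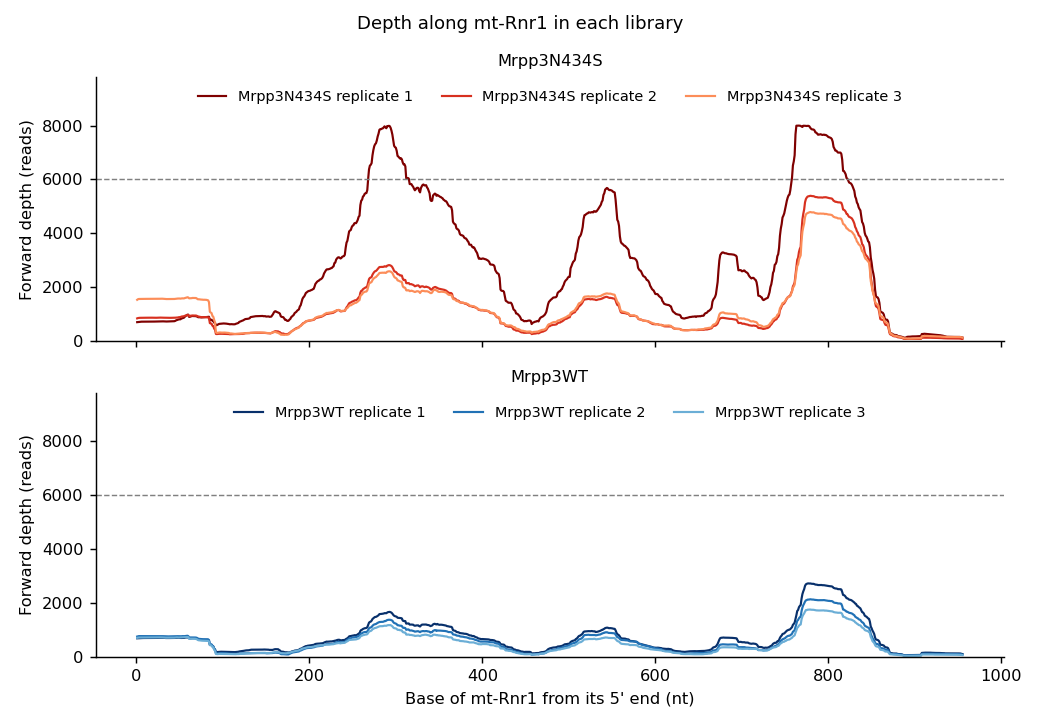
Forward-strand depth in reads (y axis) at each base of mt-Rnr1 counted from its 5′ end (x axis), with 1 line per library, Mrpp3N434S above and Mrpp3WT below on the same scale. The dashed line marks a depth of 6000, passed at 113 bases of Mrpp3N434S replicate 1 and at none of the other 5 libraries.

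The summit at position 848 was the highest in 5 libraries, while in Mrpp3N434S replicate 1 both it and the summit at position 361 stood close to a depth of 8000 and cannot be ranked. At position 848, depth was 7923, 5394 and 4792 reads in Mrpp3N434S, against 2723, 2136 and 1755 in Mrpp3WT. This equals 2.82, 4.32 and 3.75 times the gene mean in Mrpp3N434S, against 3.76, 3.60 and 3.47 times in Mrpp3WT. The low value of Mrpp3N434S replicate 1 lies in a run above 6000 reads. At position 361, depth was 7994, 2821 and 2591 reads in Mrpp3N434S, against 1664, 1376 and 1175 in Mrpp3WT. At position 613, outside the runs above 6000, the same library again had the highest relative depth, 2.02 times its gene mean, while the other 5 libraries lay between 1.31 and 1.54 times.

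**Figure D2:**
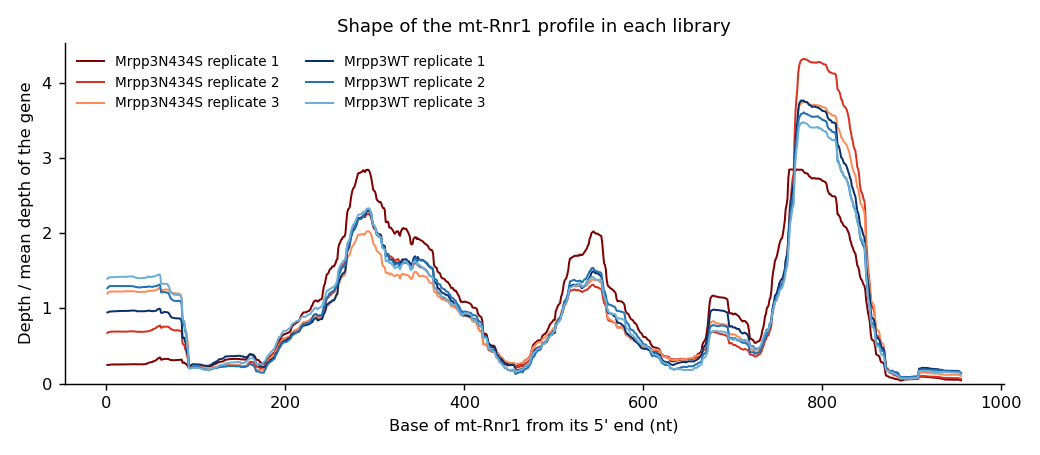
Depth divided by the mean depth of the gene in the same library (y axis, no unit) at each base of mt-Rnr1 from its 5′ end (x axis), with Mrpp3N434S libraries in red shades and Mrpp3WT libraries in blue shades. All 6 lines share the 3 summits and the low 3′ end. Mrpp3N434S replicate 1 shows no distinct 5′ block, unlike the other 5 libraries, and is flat-topped at the last summit.

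The rise in Mrpp3N434S covered the body of the gene but was not detected at its ends. The gene was divided into 19 windows of 50 nt from its 5′ end, and the last one runs to the gene's end. By the edgeR quasi-likelihood test over all 258 mitochondrial windows, 16 of the 19 mt-Rnr1 windows rose and 0 fell, where 33.7% of all windows rose and 0.775% fell. The median log2 difference was 0.95 over the mt-Rnr1 windows and 0.61 over all windows. The 16 windows form an unbroken stretch, chrM:170-969, and each had every Mrpp3N434S library above every Mrpp3WT library, as did 43.8% of all windows. Their log2 differences lay between 0.85 and 1.24, with edgeR adjusted p-values of at most 0.0117. In mt-Rnr2, 26 of 32 windows rose, with a median of 0.93. Without positions above a depth of 6000, 16 mt-Rnr1 windows rose (84.2%, beside 34.4% of all windows called in either direction). Without Mrpp3WT replicate 1 the number of risen mt-Rnr1 windows was 9 (47.4%, beside 11.8% called). With scaling to rRNA genes it was 0 (beside 12.8% called), though all 16 log2 differences stayed above 0.

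The window with the largest difference was a trough, chrM:670-719. Its normalized depth was 708, 554 and 430 in Mrpp3N434S, against 237, 248 and 230 in Mrpp3WT, and the groups were far apart (log2 1.24, SE 0.29, edgeR adjusted p = 0.000438). The deepest windows, chrM:820-869, chrM:870-919 and chrM:320-369, had log2 differences of 0.94, 0.93 and 1.01. Of the 3 shallowest windows, chrM:170-219 and chrM:920-969 rose as well, by 0.89 and 0.85. Difference and depth were thus not ordered alike along the gene as measured. The 3 deepest windows hold 43, 22 and 33 positions above 6000 in Mrpp3N434S replicate 1. Depth there may be cut off, which would make their differences too small.

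In the first window, chrM:70-119, normalized depth was 456, 996 and 1380 in Mrpp3N434S, against 681, 1078 and 1089 in Mrpp3WT. The Mrpp3N434S libraries spanned the whole range of the Mrpp3WT libraries. The log2 difference was -0.01, with a 95% interval of -0.53 to 0.51, and turned positive with scaling to library totals or tRNA genes. The second window, chrM:120-169, had a log2 difference of 0.24 (SE 0.27, edgeR adjusted p = 0.453), negative under rRNA scaling. In the last window, chrM:970-1024, normalized depth was 124, 120 and 138 in Mrpp3N434S, against 124, 138 and 113 in Mrpp3WT, so the groups overlapped. Its log2 difference was 0.03, with a 95% interval of -0.57 to 0.63, and was negative under rRNA scaling.

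**Figure D3:**
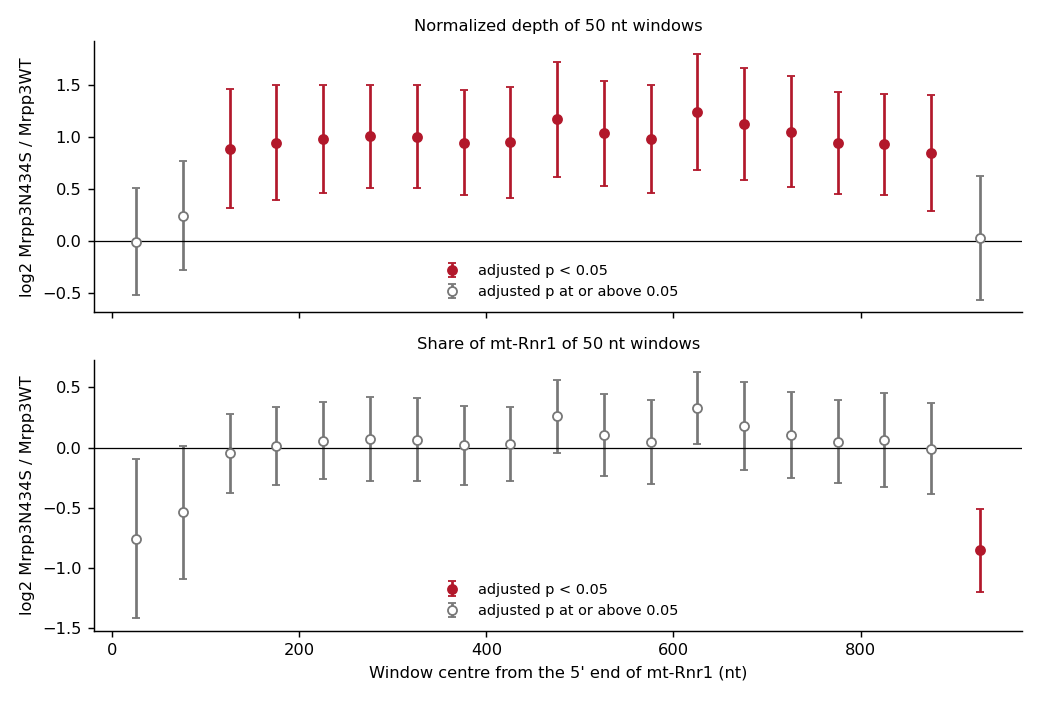
Log2 ratio of Mrpp3N434S to Mrpp3WT (y axis) for each 50 nt window of mt-Rnr1, placed at its centre from the 5′ end (x axis), for normalized depth above and for the window's share of the gene below. Points are edgeR estimates, bars are 95% intervals from 3 libraries per genotype, and filled red points passed an adjusted p of 0.05. The 16 body windows lie between 0.85 and 1.24 for depth, and the last window alone passed for share.

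Whether the ends lagged behind the body was tested as each window's share of the summed depth of the gene, which does not depend on scaling between genes. Of the 19 shares, 1 changed, where 9.24% of the 238 windows tested in all genes changed, 5.46% being rises and 3.78% falls. It was that of the last window, chrM:970-1024, which made up 0.371%, 0.436% and 0.643% of mt-Rnr1 depth in Mrpp3N434S, against 0.919%, 0.867% and 0.768% in Mrpp3WT. The groups did not overlap, and the share fell by 0.85 on the log2 scale (SE 0.18, edgeR adjusted p = 0.0146). It did not pass without Mrpp3WT replicate 1 (edgeR adjusted p = 0.107) or with limma on log2 shares (adjusted p = 0.0967). The first window made up 1.36%, 3.63% and 6.42% in Mrpp3N434S, against 5.06%, 6.76% and 7.42% in Mrpp3WT, with overlap and no call (log2 -0.76, SE 0.34, edgeR adjusted p = 0.181). Without Mrpp3N434S replicate 3, 3 windows passed, the first, the second and the last, all lower (15.8%, beside 9.75% over all genes).

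Both peaks of the gene rose. A peak was a run of at least 15 positions with at least 1.5 times the gene mean. Peak 1, printed above, had a mean depth of 6249, 2233 and 2049 reads in Mrpp3N434S, against 1300, 1064 and 903 in Mrpp3WT, without overlap. Its normalized depth was higher by a log2 difference of 0.999 (SE 0.24, edgeR adjusted p = 0.00128). Peak 2 had 6650, 4454 and 4002 reads in Mrpp3N434S, against 2196, 1711 and 1420 in Mrpp3WT, also without overlap, and a log2 difference of 0.93 (SE 0.25, edgeR adjusted p = 0.0022). Over 33 peaks in the longer mitochondrial genes 21.2% rose, all calls being rises. In mt-Rnr2, the peaks at chrM:1282-1345 and chrM:2447-2477 were also higher without overlap, while the peak at chrM:1094-1210 overlapped. Without positions above 6000 both peaks passed. Only peak 2 passed without Mrpp3N434S replicate 1, only peak 1 without Mrpp3N434S replicate 2, and 0 without Mrpp3WT replicate 3, where the smallest edgeR adjusted p was 0.0516. With rRNA scaling 0 peaks passed.

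Read ends are not in the files, so they were approached through steps in depth. The net rise at a base is its depth minus that of the base before it, a lower limit of the reads that begin there, and the net fall is the matching lower limit of reads that end there. Relative to the gene mean and averaged over the 6 libraries, the largest net rise was at the first base of the gene, position 70. It was 690, 822 and 1495 reads in Mrpp3N434S, against 664, 730 and 695 in Mrpp3WT. At position 69, the unassigned base between mt-Tf and mt-Rnr1, depth was 1.71%, 2.49% and 2.42% of that at position 70 in Mrpp3N434S, against 3.21%, 2.93% and 1.28% in Mrpp3WT. The 5′ edge was thus sharp at the annotated base in all 6 libraries. The normalized net rise there had a log2 difference of -0.02 (SE 0.47, edgeR adjusted p = 0.974), positive when scaled to library totals or tRNA genes.

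Outside Mrpp3N434S replicate 1, depth from position 70 formed a nearly flat block that ended within a few bases. At position 153, base 84 of the gene, depth was 129%, 103% and 94.4% of that at the first base in Mrpp3N434S, against 87.2%, 83.0% and 80.7% in Mrpp3WT. At position 161 it was 83.9%, 31.6% and 21.3% in Mrpp3N434S, against 25.9%, 17.4% and 14.9% in Mrpp3WT. The drop was thus steep in every library but Mrpp3N434S replicate 1. The net falls at positions 153 and 160, the later capitals of the 5′ block above, were among the 6 largest of the gene relative to its mean depth. At position 160 the net fall was 87, 155 and 359 reads in Mrpp3N434S, against 96, 136 and 119 in Mrpp3WT, and its log2 difference of 0.24 did not pass (SE 0.53, edgeR adjusted p = 0.728; negative under rRNA scaling). The net rise at the first base was 2.84%, 7.46% and 13.5% of all net rises of the gene in Mrpp3N434S, against 9.83%, 12.9% and 14.9% in Mrpp3WT, with overlap.

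**Figure D4:**
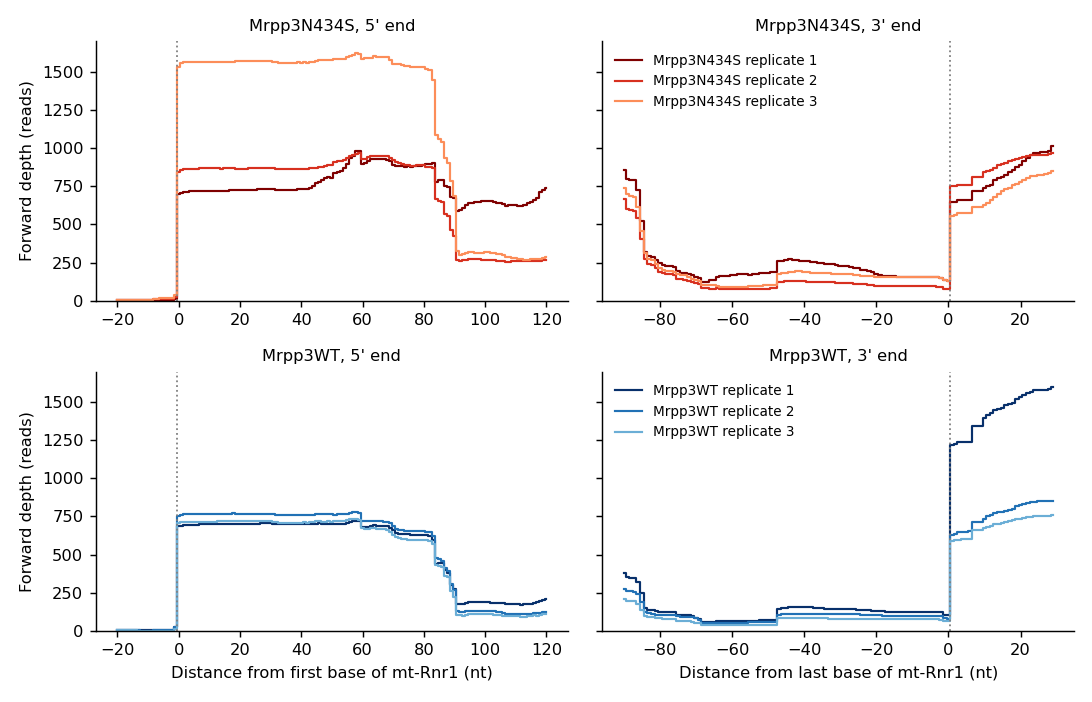
Forward-strand depth in reads (y axis) around the first base of mt-Rnr1 (left, distance in nt on the x axis) and around its last base (right), with Mrpp3N434S libraries above and Mrpp3WT libraries below. Dotted lines mark the gene's borders. Depth steps up at the first base in all 6 libraries, and at the 3′ border it steps up again into mt-Tv, from a level of 63 to 130 reads at the last base of mt-Rnr1.

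In the body, net rises were spread over many bases. Of 218 mt-Rnr1 positions tested, 0 passed by the edgeR quasi-likelihood test and 0 by DESeq2, where edgeR called 3.54% of 791 positions in all genes, 2.15% as higher and 1.39% as lower. By edgeR, 73 (33.5%) had an unadjusted p under 0.05, close to the 32.6% of all 791 positions, and the smallest adjusted p was 0.0721. The log2 difference was positive at 212 (97.2%), beside 87.6% of all positions. Calls in the gene numbered 21 without Mrpp3N434S replicate 1 (13.6%, beside 19.1% over all genes), 25 without Mrpp3N434S replicate 3 (11.6%, beside 14.3%) and 0 without each of the other libraries. Apart from the first base, the largest rises relative to the gene mean that were seen in all 6 libraries stood at positions 831, 833, 832, 813 and 840. At position 831 the net rise was 780, 273 and 254 reads in Mrpp3N434S, against 131, 114 and 98 in Mrpp3WT, without overlap (log2 1.23, SE 0.42, edgeR adjusted p = 0.0998). At position 833 it was 2, 321 and 206 reads in Mrpp3N434S, against 159, 125 and 98 in Mrpp3WT. The lone low value, in Mrpp3N434S replicate 1, stands where depth is close to 8000. Of the net rises summed in reads after the first base, 52.5% to 56.9% stood at an A in the 6 libraries. A made up 37.8% of the bases of the gene. These sums are weighted by step height, and the 10 highest positions held 18.2% to 28.3% of them.

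Of 233 positions tested for net falls, 1 passed, where 2.5% of 841 positions in all genes did, 1.9% as higher and 0.595% as lower. It was position 627, base 558 of the gene, on the 3′ slope of the middle summit, capital in chrM:608-637.
Net fall at 627: tccatctagaggagcctgtTctataatcga
The net fall there was 389, 120 and 142 reads in Mrpp3N434S, against 45, 38 and 36 in Mrpp3WT, and the groups were far apart (log2 1.74, SE 0.37, edgeR adjusted p = 0.0376). An unadjusted p under 0.05 was seen at 76 of the 233 positions (32.6%), beside 32.3% of all positions. The number of calls was 10 without Mrpp3N434S replicate 1 (5.59%, beside 5.65% over all genes), 36 without Mrpp3N434S replicate 3 (15.1%, beside 17.4%) and 0 without any 1 of the other 4 libraries. DESeq2 called 15 (6.44%, beside 7.37%). The largest net fall relative to the gene mean was at position 917, in peak 2, with 383, 496 and 408 reads in Mrpp3N434S, against 180, 129 and 134 in Mrpp3WT. It did not overlap and did not pass (log2 1.06, SE 0.35, edgeR adjusted p = 0.098). The nearby fall at position 922 had a log2 difference of 0.94 (SE 0.32, edgeR adjusted p = 0.103). Of the net falls summed in reads, 39.7% to 44.3% stood at a T and 31.0% to 36.0% at a C, against 26.4% T and 19.7% C in the gene.

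The 3′ end, where RNase P separates mt-Rnr1 from mt-Tv, held few reads. Depth had a low of 122, 76 and 90 reads in Mrpp3N434S and 56, 51 and 35 in Mrpp3WT. At position 977, the first of the last 48 nt, it stepped up. The step was 76, 45 and 71 reads in Mrpp3N434S and 74, 48 and 44 in Mrpp3WT. Depth at that step was 261, 125 and 176 reads in Mrpp3N434S and 144, 106 and 85 in Mrpp3WT. From there it declined slowly, with no further step of that size before the last base. The last 10 nt had 5.28%, 7.26% and 11.6% of the gene's mean depth in Mrpp3N434S, against 16.6%, 15.9% and 14.5% in Mrpp3WT. The groups did not overlap, with a log2 difference of -1.03 and the smallest possible p of 0.1 in the exact two-sided permutation test (0.167 adjusted over the 5 single-value tests of the gene). For the first 10 nt the shares were 25.5%, 68.9% and 122% in Mrpp3N434S, against 95.8%, 129% and 141% in Mrpp3WT, which overlapped (log2 difference -1.01, exact permutation p = 0.2). Leaving the positions above 6000 out of the gene mean gave log2 differences of -1.01 for the last and -0.99 for the first 10 nt.

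Across the border itself, depth at the last base of mt-Rnr1 was 130, 79 and 129 reads in Mrpp3N434S, against 102, 80 and 63 in Mrpp3WT. At the next base, the first of mt-Tv, it was 648, 750 and 556 reads in Mrpp3N434S, against 1221, 631 and 591 in Mrpp3WT. Depth at the last base was therefore 20.1%, 10.5% and 23.2% of that at the first base of mt-Tv in Mrpp3N434S, against 8.35%, 12.7% and 10.7% in Mrpp3WT, and these overlapped. Because mt-Tv was deeper than the end of mt-Rnr1 in all 6 libraries, no net fall marks the last base, and reads that cross the border could not be told from reads that end or begin there.

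Antisense depth was near 0. The reverse strand gave 211, 107 and 169 bases in the gene in Mrpp3N434S, against 271, 92 and 83 in Mrpp3WT. As a percentage of both strands this was 0.00786%, 0.00896% and 0.0138% in Mrpp3N434S, against 0.0392%, 0.0163% and 0.0172% in Mrpp3WT. The shares did not overlap (exact two-sided permutation p = 0.1, adjusted 0.167). The counts themselves overlapped, so the lower share in Mrpp3N434S moved with the larger forward depth.

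At base level, mt-Rnr1 fragments matched the reference closely in both genotypes. All 6 libraries reached a depth of 50 at 934 of the 955 positions, and the 21 others lie between positions 956 and 976. The mean mismatch over the 934 positions was 0.275%, 0.277% and 0.278% in Mrpp3N434S, against 0.277%, 0.307% and 0.280% in Mrpp3WT. These values overlapped, at 0.277% ± 0.0015 in Mrpp3N434S and 0.288% ± 0.0163 in Mrpp3WT (SD, n = 3 each; exact two-sided permutation p = 0.2). No mt-Rnr1 position had a mean mismatch of 5% or more over the 6 libraries, so none was among the 6 tRNA and rRNA sites tested at that level, of which 0% were called. At a minimum of 1%, 4 mt-Rnr1 positions were among 42 sites tested, of which 0 passed with the edgeR quasi-likelihood test, and 0 of the 4 had an unadjusted p under 0.05.

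**Figure D5:**
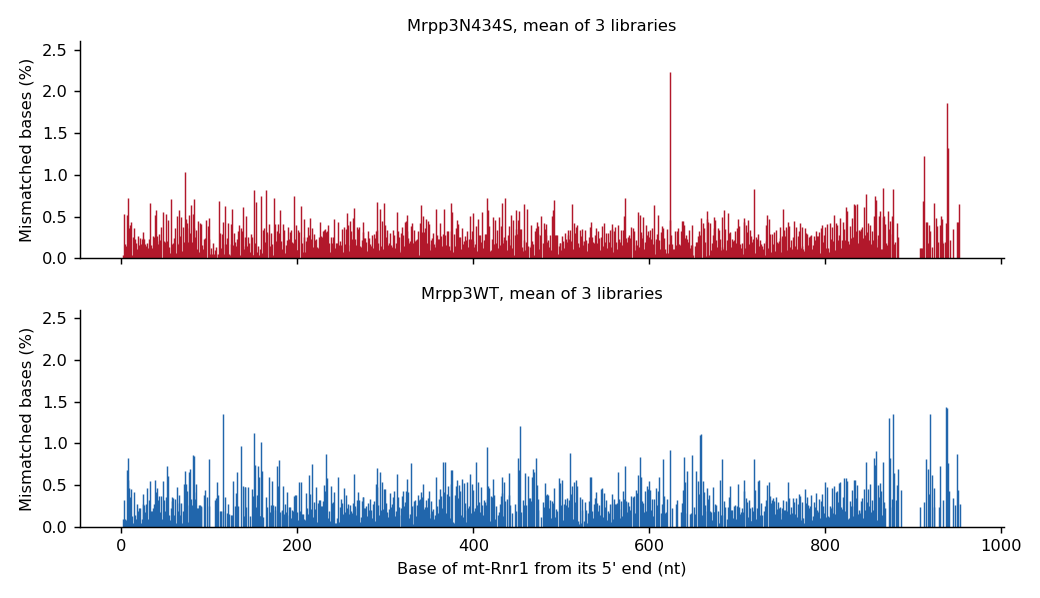
Mean percentage of mismatched bases over 3 libraries (y axis) at the 934 bases of mt-Rnr1 where all 6 libraries reached a depth of 50 (x axis, base from the 5′ end), Mrpp3N434S above and Mrpp3WT below. Most bases lie under 0.5% in both, and the tallest line, in Mrpp3N434S at base 624, comes from 1 library.

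The highest single value belonged to 1 library. At position 693, base 624 counted from 1 at the 5′ end of the gene, Mrpp3N434S replicate 1 had 5.38% mismatch (54 of 1003 reads, exact 95% binomial interval 4.07% to 6.97%), and all 54 were the change T624C. The other libraries had 0.656% and 0.659% in Mrpp3N434S, against 0%, 1.33% and 1.43% in Mrpp3WT. It was the 1 value of 5604 single-library values to reach 5%, and the site's log2 difference of 1.49 did not pass (SE 1.09, edgeR adjusted p = 0.629). The count of 0 in Mrpp3WT replicate 1 was out of 213 reads, for which the exact 95% binomial interval reaches 1.72% and the limit of 3 reads that a count of 0 allows is 1.41%.

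The dimethylated adenosines had mean mismatches among the highest of the gene, from at most 4 mismatched reads per library. The methylated cytosines had less. At the dimethylated pair, positions 1006 and 1007, depth was only 78 to 159 reads. Position 1007, base 938, had the highest mean of the gene, 1.64%, with 4 of 159, 3 of 98 and 0 of 152 reads in Mrpp3N434S, against 0 of 126, 3 of 100 and 1 of 78 in Mrpp3WT. Those counts do not separate the genotypes (log2 0.33, SE 0.93, edgeR adjusted p = 0.852). Position 1006 had 2 of 159, 0 of 98 and 0 of 152 reads in Mrpp3N434S, against 1 of 127, 1 of 100 and 2 of 79 in Mrpp3WT. Its mean of 0.929% ranked 6th in the gene. Position 1008, the A after the pair, ranked 4th with 1.04%. The methylated cytosines lie in the cccgtc of peak 2, at position 909, the METTL15 site, and position 911, the NSUN4 site, and were covered by 997 to 4364 reads. Their mean mismatch was 0.263% and 0.357%, beside 0.249% for the median position of the gene, and their genotypes overlapped.

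Mismatch depended on the reference base in all 6 libraries. It was highest at A, with 0.357% to 0.44%, then at T with 0.253% to 0.296% and at C with 0.178% to 0.227%, and lowest at G with 0.124% to 0.165%. A read as G was the commonest change, with 34.8% to 36.4% of all mismatched bases, and T read as C made up 17.6% to 20.5%. At C, the values were 0.193%, 0.198% and 0.178% in Mrpp3N434S, against 0.227%, 0.214% and 0.207% in Mrpp3WT, without overlap. This difference was picked after the values were seen and was not tested, and at the other bases the genotypes overlapped.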

How the data were processed

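Per the labels' protocols, islet RNA was extracted with a miRNeasy kit and made into Illumina TruSeq small RNA libraries. The submitters' processing notes name Trim Galore, cutadapt, FastQC, STAR and GRCm38.p6, without versions or order. No source used here gives the base counter, its filters, a depth limit or how reads shared with nuclear copies were treated. Per the file headers, the deposited values are raw counts of each base per position and strand, with no scaling by the authors. A table of tRNA position 9 counts was not used.

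Depth was summed over A, C, G, T and N on the gene's strand, averaged over genes, windows or peaks and rounded. It was compared with the edgeR 4.0.16 quasi-likelihood test (R 4.3.3) at a minimum mean of 10. TMM scale factors came from the 34 genes that reached that mean, and Benjamini-Hochberg adjustment ran over all mitochondrial features at a threshold of 0.05. Window shares used the gene's summed depth as offset, in genes with at least 4 windows. Mismatch fits had an effect for each library. Single values were compared by exact permutation over libraries (SciPy 1.17.1). Neighbouring bases share reads, so windows and positions are not independent. Intervals of log2 differences include the spread between libraries, and the binomial intervals and limits of mismatch cover counting error only. The smallest chi-square per degree of freedom between 2 libraries was 3.15 over 37 genes, so all 6 counted as separate samples; each is 1 mouse by the design text.

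Named items were windows past the threshold, the 3 deepest and 3 shallowest windows, all peaks, the 6 largest net rises and falls seen in all libraries and those past the threshold, the gene's ends, the 5 highest mismatch means, the modified bases and the 3 most similar genes. The summit at 613, the step at 977 and the reference-base and end-base summaries were added after values were seen. The gene, lists and tests were chosen with earlier results of these data known. In simulated data, the fits recovered 66.7% of genes and 52.8% of windows changed by 1 on the log2 scale (34 genes, 258 windows), and 100% of those changed by 2. Alternatives were other scalings, DESeq2 1.42.0, limma 3.58.1, no filter, other window lengths and peak, depth and mismatch minimums, leaving out positions above 6000, the replicate number as a block, and each library left out.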

Additional observations from a re-analysis of the deposited data

How the results depend on the processing

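Of 333 values recomputed under another setting with all libraries kept, 259 were scored as unchanged, and of 312 with 1 library left out, 241 were. A fitted difference was unchanged if it kept its direction and side of the threshold, or had no adjusted p. A count was unchanged if it stayed of similar size, and a value compared by exact permutation if it kept its direction. The cause of the changes was not tested. Scaled to rRNA genes, the log2 difference of the gene was 0.24 and no longer passed, the counts were 0 risen windows, 0 peaks and 0 net falls, and log2 differences turned to -0.14 for mt-Rnr2, -0.30 for mt-Tl1, -0.32 for chrM:120-169, -0.61 for chrM:970-1024, -0.39 and -0.22 for the net rises at 833 and 840, and -0.41, -0.26 and -0.37 for the net falls at 153, 160 and 885. Scaled to library totals, 9 net rises (4.13% of those tested in the gene, beside 10.2% over all genes) and 17 net falls (7.3%, beside 9.16%) passed, and chrM:70-119 and the net rise at 70 turned to 0.12 and 0.11. Scaled to tRNA genes, 81 net rises (37.2%, beside 35% over all genes) and 88 net falls (37.8%, beside 35%) passed, and the same window and rise turned to 0.37 and 0.36. With the maximum depth, mt-Rnr2 turned to -0.36, and with median depths the log2 ratio of mt-Rnr1 to mt-Rnr2 differed by -0.14. Windows of 25 nt gave 31 risen windows of 38 (81.6%, beside 35.1% of all windows called in either direction). They gave 2 changed shares, both at the 3′ end (5.26%, beside 9.74%). Windows of 100 nt gave 8 risen of 10 (80%, beside 34% called). With limma 0 shares passed, beside 0% over all genes, and with DESeq2 15 net falls (6.44%, beside 7.37%). With no filter, 1 net rise passed (position 410, lower in Mrpp3N434S, 0.176%, beside 0.721%). So did 3 net falls (409, 627 and 847, all higher, 0.482%, beside 0.328%). Without positions above 6000 there were 2 net rises (813 and 826, 1.1%, beside 5.97%).

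Same-numbered libraries deviated together with correlations of 0.07, 0.06 and 0.16, so the numbers were not taken to pair the mice, although each Mrpp3N434S library correlated best with its own number. With the replicate block, the gene's log2 difference was 0.88 (edgeR adjusted p = 0.0723). Those of the first 2 windows and the last were the 3 shares that passed, all lower (15.8%, beside 18.5% over all genes). The 3 net falls that passed were at 356, 627 and 927 (1.29%, beside 4.88%). The net rises at 833 and 840 turned to -0.83 and -0.041, and the net falls at 153 and 160 to -0.071 and -0.015.

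With each library left out in turn, the log2 difference of the gene lay between 0.70 and 1.05. The counts were 9 to 16 risen windows, 0 to 3 changed shares, 0 to 2 peaks, 0 to 25 net rises and 0 to 36 net falls. Over all genes, calls made up 11.8% to 59% of windows, 0% to 9.75% of shares and 9.09% to 54.5% of peaks. For net rises they made up 0.979% to 19.1%, and for net falls 0.339% to 17.4%. Log2 differences ran from -0.25 to 0.53 for mt-Tl1, -0.39 to 0.31 for chrM:70-119, -0.021 to 0.48 for chrM:120-169 and -0.076 to 0.053 for chrM:970-1024. They ran from -0.41 to 0.30, -0.70 to 0.72 and -0.25 to 0.81 for the net rises at 70, 833 and 840, and from -0.32 to 0.53, -0.43 to 0.67 and -0.12 to 0.61 for the net falls at 153, 160 and 885. Depth limits the 3′ end most: its 21 shallowest positions had under 50 reads in some library.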
